A study of Caenorhabditis elegans with 2 samples.

Results

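The lbp genes of the nematode Caenorhabditis elegans encode its fatty acid binding proteins. All 9 of them (lbp-1 to lbp-9) were examined among 19973 nuclear protein-coding genes, using regions listed in a binding map of the zinc-finger protein ZTF-7. The set was chosen by gene name, and it was selected on the measured signal as well, because lbp-3 was known to have a strong peak. The regions of each gene were those with a summit within 2000 bp of its annotated 5' end in the deposited lists. The lbp values below are therefore a description, with no test.

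Binding had been mapped by chromatin immunoprecipitation followed by sequencing (ChIP-seq), which recovers and sequences the DNA attached to a chosen protein. There was 1 group, with 2 biological replicates of whole L4 larvae, the last larval stage, with both sexes mixed. The animals were of strain OP332, genotype unc-119(tm4063) III; wgIs332, in which an integrated transgene supplies ZTF-7 tagged with eGFP. All samples carry this unc-119 allele and this insertion, no control sample was analysed here, and tissues cannot be told apart in whole animals.

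Fatty acid binding proteins are small proteins that fold into a barrel and hold a fatty acid or a similar lipid inside it, which lets an insoluble lipid move through a watery compartment. In C. elegans some members, LBP-1, LBP-2 and LBP-3 among them, have predicted secretion signals, and others stay inside the cell. LBP-3 has been described as a secreted carrier that takes a lipid signal made by the lysosomal lipase LIPL-4 from the intestine to neurons. LBP-8 has likewise been described as a carrier of a lysosomal lipid to the nucleus, where the nuclear hormone receptors NHR-49 and NHR-80 respond to it.

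The authors deposited a list of peaks past the threshold of the irreproducible discovery rate (IDR, a measure of how well peaks recur between replicates) and 3 longer lists with weaker regions. The IDR list held 1311 peaks, of which 1289 were nuclear. The pooled list and the list of each replicate held 30000 regions each. The pooled list was deposited as peaks and background that served as input for the IDR comparison, so a region listed there need not be bound. Each region has a signal value from the peak caller, which compares only within a list, so ranks are given beside it, with rank 1 the highest signal. The number of reads behind the lists is unknown, and no error can be set on a single signal. The median nuclear signal was 4.84 in replicate 1 and 11.8 in replicate 2, so the replicates are to be compared by rank. Positions are on genome build ce11 (WBcel235), with the first base as 1.

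The lbp genes stood on 3 chromosomes. On X, lbp-3, lbp-1 and lbp-2 lay in this order on the forward strand within 4099 bp. On I, lbp-5 and lbp-6 lay on the reverse strand with ant-1.2, an ADP/ATP translocase gene, between them. On V, lbp-7 and lbp-8 lay on the forward strand, and lbp-4 and lbp-9 stood apart from them and from each other.

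Bases at the strongest pooled region are shown for lbp-3, which held the only IDR peak of the family, and for lbp-4 and lbp-9, whose signals came next. Of the other regions with repeated TGATAA, those of lbp-7 and lbp-8 are shown and that of lbp-6 is not. All printed stretches are from the forward strand of the RefSeq copy of WBcel235, written 5' to 3', and begin 150 bp before the summit. Those of lbp-3, lbp-4, lbp-9 and lbp-7 stop just before the gene's most upstream annotated 5' end, and that of lbp-8 has the full 300 bp. The stretches are chrX:3256824-3257009 for lbp-3, chrV:7820281-7820577 for lbp-4, chrV:2068182-2068448 for lbp-9, chrV:13879278-13879551 for lbp-7 and chrV:13891506-13891805 for lbp-8. Capitals mark 4 short motifs. TGATAA, which is TTATCA when the opposite strand carries it, is the letter core of GATA factor sites. TATAAA is the TATA box, the palindrome CACGTG is an E-box, and the splice acceptor consensus is TTTCAG.
lbp-3: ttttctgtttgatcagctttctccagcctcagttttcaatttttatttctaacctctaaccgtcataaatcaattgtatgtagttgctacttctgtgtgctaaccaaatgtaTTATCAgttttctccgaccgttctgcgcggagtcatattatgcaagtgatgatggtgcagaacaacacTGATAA
lbp-4: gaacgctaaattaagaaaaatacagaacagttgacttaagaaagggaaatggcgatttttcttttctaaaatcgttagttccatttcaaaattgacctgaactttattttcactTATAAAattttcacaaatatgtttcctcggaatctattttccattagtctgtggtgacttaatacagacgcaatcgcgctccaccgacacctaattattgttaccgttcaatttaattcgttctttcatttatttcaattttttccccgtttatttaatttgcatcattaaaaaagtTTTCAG
lbp-9: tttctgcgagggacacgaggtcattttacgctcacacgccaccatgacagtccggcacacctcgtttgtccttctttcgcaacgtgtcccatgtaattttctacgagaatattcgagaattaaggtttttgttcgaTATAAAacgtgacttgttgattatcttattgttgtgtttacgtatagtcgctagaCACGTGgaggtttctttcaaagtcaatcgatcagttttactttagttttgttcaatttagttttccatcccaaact
lbp-7: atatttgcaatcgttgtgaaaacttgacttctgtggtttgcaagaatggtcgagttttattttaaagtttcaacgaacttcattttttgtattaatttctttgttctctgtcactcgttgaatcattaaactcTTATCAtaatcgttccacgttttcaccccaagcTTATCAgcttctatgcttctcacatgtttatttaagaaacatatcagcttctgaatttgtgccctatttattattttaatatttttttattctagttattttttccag
lbp-8: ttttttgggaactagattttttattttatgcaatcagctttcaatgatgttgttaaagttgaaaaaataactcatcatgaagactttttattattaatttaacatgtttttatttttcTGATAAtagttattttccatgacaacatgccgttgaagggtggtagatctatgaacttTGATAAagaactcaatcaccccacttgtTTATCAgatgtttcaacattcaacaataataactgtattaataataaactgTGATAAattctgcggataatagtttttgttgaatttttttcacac

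Of the 9 lbp genes, 1 had an IDR summit within 2000 bp of its 5' end, against 7.90% of all nuclear protein-coding genes. That gene was lbp-3. In the pooled list 8 of the 9 had a region, all but lbp-2, against 49.5% of coding genes. In the replicate 1 list all 9 had a region, against 60.0% of coding genes. In the replicate 2 list 7 had a region, all but lbp-1 and lbp-2, against 50.9%. The same 7 had a region in the pooled list and in both replicate lists, against 40.1% of coding genes.

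The lbp-3 gene (WBGene00002255, chrX:3257372-3258155, forward strand) had its peak at chrX:3256827-3257094, with the summit at base 3256974. The summit lay 398 bp upstream of the gene's 5' end, in the intergenic stretch between lbp-3 and the upstream tba-9, an alpha-tubulin gene. The peak had a signal of 375 in the IDR list and the same value in the pooled list, where it ranked 25 among all peaks. The peak ranked 7 of 1289 among nuclear IDR peaks and 2 of 321 among those on X. Its signal was 5.68 times the median of nuclear IDR peaks and 7.63 times the weakest IDR signal, 49.2, while the strongest nuclear peak reached 639.

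Both replicates held the lbp-3 peak near the top of their lists. In replicate 1 its signal was 174 and its rank 11, or 5 among nuclear regions. In replicate 2 its signal was 204 and its rank 31, or 11 among nuclear regions. The summits lay 397 bp upstream in replicate 1 and 393 bp upstream in replicate 2, so the summits of the pooled list and both replicates spanned 5 bp. The peak was 268 bp wide in the pooled list, 219 bp in replicate 1 and 227 bp in replicate 2. The median nuclear IDR peak was 324 bp wide, and 13.2% of nuclear IDR peaks were narrower than that of lbp-3.

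The regions around the lbp-3 peak were weaker in each list. No other IDR summit lay within 20000 bp of its summit. Within 10000 bp of it the pooled list had 5 other regions, of which the strongest had a signal of 24.0, so that the lbp-3 signal was 15.6 times as high. The corresponding strongest neighbour had a signal of 6.95 among 7 regions in replicate 1 and of 17.2 among 3 regions in replicate 2. Inside the lbp-3 gene itself, the pooled list had a weak region in an intron, 582 bp downstream of the 5' end, with a signal of 9.21 and rank 27409.

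**Figure D1:**
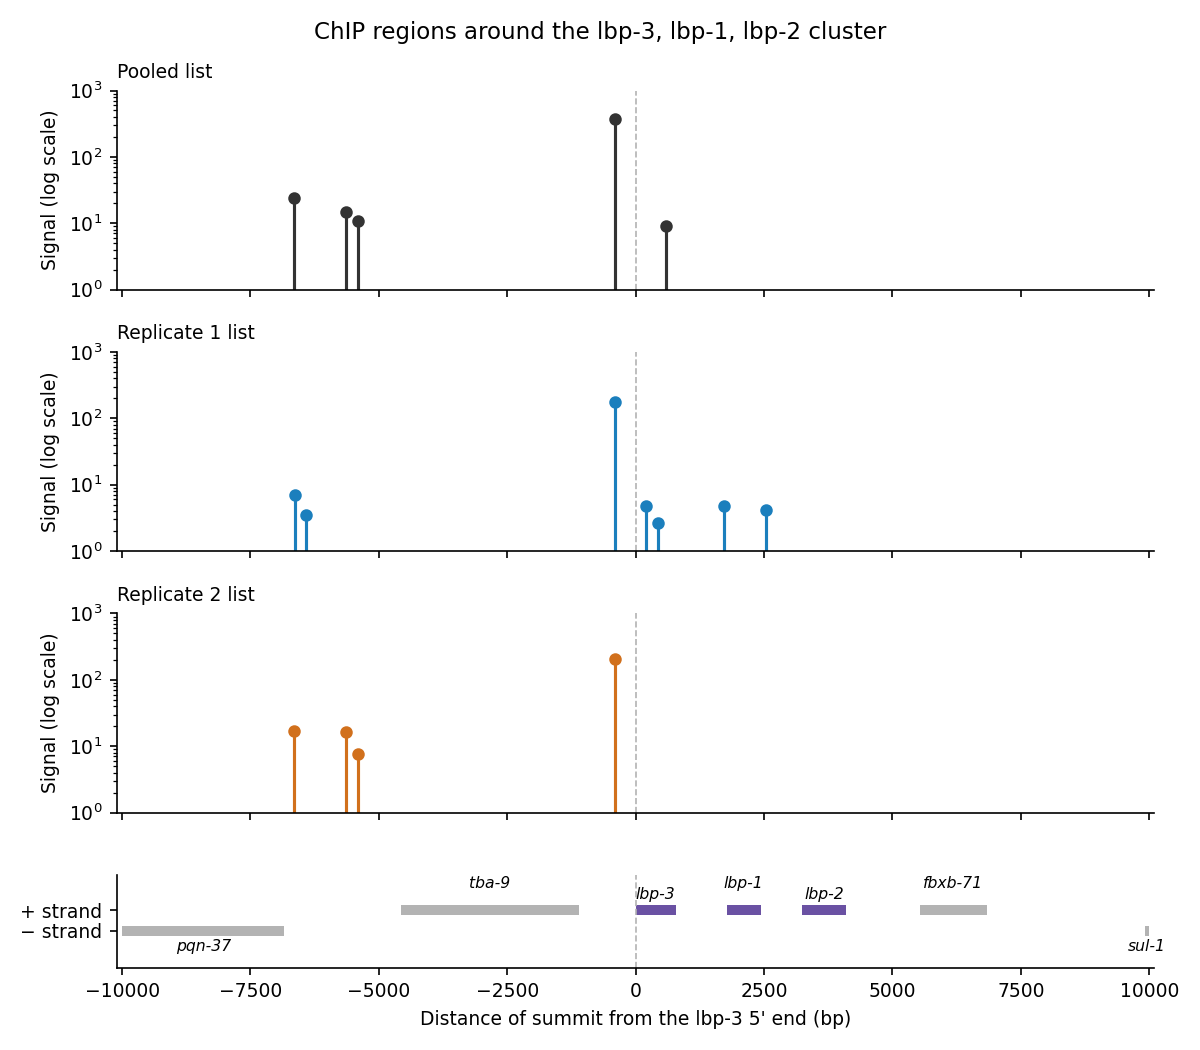
Regions of the pooled and replicate lists around lbp-3, by distance from its 5' end in bp, with the caller's signal on a log axis and genes drawn below by strand; the dashed line is the 5' end. The peak 398 bp upstream of lbp-3 has a signal of 375 in the pooled list, 174 in replicate 1 and 204 in replicate 2, and every other region drawn is lower in its own list.

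The distance of the lbp-3 summit from the gene depended on the annotation. The RefSeq record of lbp-3 begins 362 bp farther upstream, which puts the summit 36 bp before the gene. The second Ensembl transcript begins farther downstream, and the summit is 477 bp before it. Many C. elegans transcripts are trimmed at the 5' end by trans-splicing, so that an annotated 5' end need not be where transcription starts. The 5' ends of 7 of the 9 lbp genes were the same in both annotations, and that of lbp-8 was 94 bp farther upstream in RefSeq.

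The neighbours of lbp-3 on X, lbp-1 and lbp-2, had weak regions or none. The lbp-3 summit lay 2168 bp upstream of lbp-1 and 3636 bp upstream of lbp-2, so lbp-1 fell just outside the distance of 2000 bp and lbp-3 was inside it. The strongest pooled region of lbp-1 was the weak one in the lbp-3 intron, 1188 bp upstream of lbp-1. Its −log10 q (from the caller's q-value, in general higher for a stronger region) was 0.192, where the pooled list reached 2.11. Among strong regions this measure differs little: it was 2.11 for the lbp-3 peak and 2.03 for the strongest region of lbp-9. In replicate 1, a region 55 bp upstream of lbp-1 had a signal of 4.82 and rank 15090, and replicate 2 listed none for this gene. For lbp-2 the pooled list and replicate 2 listed no region. Replicate 1 listed that same region 1523 bp upstream of lbp-2 and a nearer one 696 bp upstream, with a signal of 4.16 and rank 18030. Their −log10 q was 0.734 and 0.522, where the replicate 1 list reached 2.77. The downstream neighbour of lbp-2 is fbxb-71, an F-box gene, 1429 bp away.

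The other 6 lbp genes, on I and V, had strongest pooled regions with signals from 29.6 to 43.5, at 5.59% to 12.1% of the list counted from the top. None of these reached 49.2, the weakest signal in the IDR list. Those percents count single regions, and most genes with a region have more than 1. Among the 9878 coding genes with a pooled region, each taken by its strongest, the 6 genes stood lower, from 19.6% for lbp-9 to 35.1% for lbp-7. The signal of lbp-3 was 8.63 times that of lbp-9, the next of the family. The order of the strongest pooled regions was lbp-3, lbp-9, lbp-4, lbp-6, lbp-5, lbp-8, lbp-7 and lbp-1. The replicates did not keep the order from lbp-9 to lbp-7: lbp-8 ranked highest of these 6 in replicate 1 and lbp-4 in replicate 2.

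**Figure D2:**
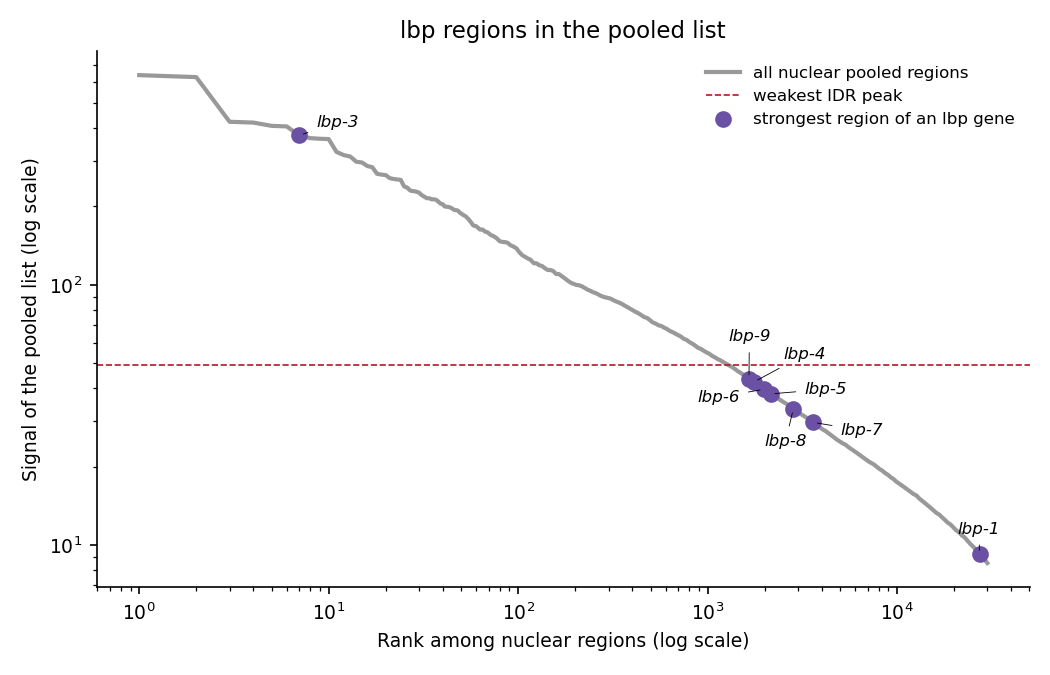
Signal of the nuclear pooled regions against their rank among nuclear regions, both on log axes, with a point for the strongest region of each lbp gene and a dashed line at the weakest IDR signal, 49.2. lbp-3 lies at nuclear rank 7, above the line, and the other 7 lie below it, from lbp-9 at 1654 to lbp-1 at 27386.

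Among the lbp genes on I and V, the strongest pooled region lay upstream and close to the gene for lbp-9, lbp-4, lbp-6 and lbp-7. The strongest pooled region of lbp-9, whose protein is the least like any other of the family, lay 117 bp upstream, with a signal of 43.5 and rank 1677. Its strongest region in replicate 1 had a signal of 17.4 and rank 2258 and lay 307 bp upstream, and nearer the pooled summit, at 107 bp upstream, replicate 1 had a weaker region of 5.73 at rank 12119. In replicate 2 the region was again 117 bp upstream, with a signal of 26.2 and rank 2250. The lbp-9 gene and nhr-86, a nuclear hormone receptor gene, point away from each other with 1598 bp between them, and a second pooled region of 21.9 lay 109 bp upstream of nhr-86.

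For lbp-4 the strongest pooled region lay 147 bp upstream, with a signal of 42.3 and rank 1779. Replicate 1 had it 57 bp upstream, with a signal of 10.3 and rank 5277, and replicate 2 had it 166 bp upstream, with a signal of 33.7 and rank 1159. The replicates thus placed this gene at quite different ranks. The rank in replicate 2 is within the first 1311 of that list, as many as the IDR list holds. The nearest coding genes of lbp-4 are far off, ZK742.6 at 5635 bp and mig-6, which encodes an extracellular matrix protein, at 5739 bp.

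For lbp-6 the strongest pooled region lay 291 bp upstream, between lbp-6 and ant-1.2, with a signal of 39.7 and rank 2014. In replicate 1 it had a signal of 12.0 and rank 4186 at 286 bp upstream, and in replicate 2 it had a signal of 24.5 and rank 2741 at 298 bp upstream. Replicate 2 had a stronger region for this gene 1603 bp downstream of the 5' end, inside an intron of mec-6, with a signal of 27.0 and rank 2081. The 3' ends of lbp-6 and mec-6, a gene of the touch receptor channel, overlap by 35 bp.

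For lbp-7 the strongest pooled region lay 124 bp upstream, with a signal of 29.6 and rank 3636. A region 98 bp upstream in replicate 1 had a signal of 8.48 and rank 7030, and one 93 bp upstream in replicate 2 had a signal of 20.2 and rank 4482. The strongest region of lbp-7 in replicate 1 was another one, 1132 bp upstream, with a signal of 16.9 and rank 2364. The neighbours of lbp-7 are T22G5.1 upstream at 1499 bp and T22G5.3 downstream at 693 bp.

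The strongest pooled regions of lbp-5 and lbp-8 lay downstream of the 5' end. That of lbp-5 was in an intron of the gene, 419 bp downstream, with a signal of 38.1 and rank 2178. The intron region had a signal of 14.1 and rank 3228 in replicate 1 and of 26.8 and rank 2114 in replicate 2. The strongest region of lbp-5 in replicate 1 was instead upstream of the gene by 387 bp, with a signal of 18.1 and rank 2106. A pooled region of 24.3 just upstream of ant-1.2, by 80 bp, was within 2000 bp of both lbp-5 and lbp-6. The upstream neighbour of lbp-5 is smg-5, a gene of nonsense-mediated mRNA decay, at 1751 bp.

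The strongest pooled region of lbp-8 lay past the end of the gene, 883 bp downstream of its 5' end, with a signal of 33.4 and rank 2861. In replicate 1 the region there had a signal of 4.28 and rank 17436, and in replicate 2 a signal of 31.2 and rank 1429. The replicates differed widely for it. The strongest region in replicate 1 lay 1946 bp downstream of the 5' end, with a signal of 20.8 and rank 1607, and was nearer to sptl-3, a serine palmitoyltransferase gene, at 606 bp upstream. Upstream of lbp-8, toward spp-12, which encodes a saposin-like protein, the pooled list had a region of 8.54 at 231 bp, near the end of the list at rank 29926.

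**Figure D3:**
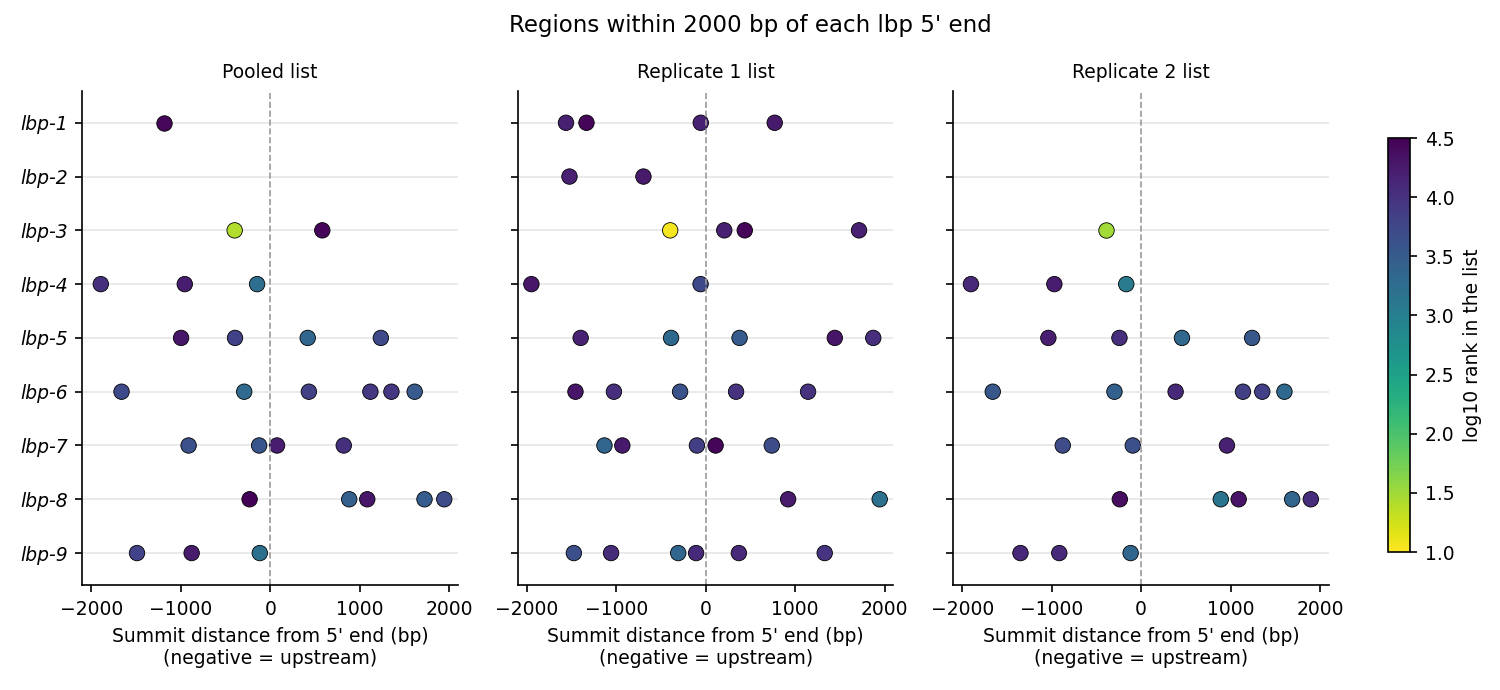
Position of each listed region within 2000 bp of the 5' end of each lbp gene, in bp, negative upstream, for the pooled list and both replicate lists, with log10 of the rank as colour and a dashed line at the 5' end. The brightest point in each panel is the lbp-3 peak, 398 bp upstream in the pooled list, and lbp-5 and lbp-8 have their strongest pooled region downstream.

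Over the 8 lbp genes with a pooled region, the strongest lay within 500 bp upstream for 5, namely lbp-3, lbp-4, lbp-6, lbp-7 and lbp-9, against 31.5% of coding genes with a pooled region. A region among the 2622 strongest of the pooled list, which is as many as 2 lists of the IDR list's length, was found for 5 of the 9 genes, lbp-3, lbp-4, lbp-5, lbp-6 and lbp-9, against 13.8% of coding genes. That line was not among the planned counts, and it falls between lbp-5, at rank 2178, and lbp-8, at rank 2861. The IDR list gave 1 of the 9 genes, against 7.90%. The 9 genes had 26 distinct pooled regions, of which 19 were intergenic, 4 intronic, 2 in coding exons and 1 in a 3' UTR. Of these 26, 22 overlapped a region of replicate 1 by at least 1 bp, 25 one of replicate 2 and 21 both. The last is 80.8%, beside 43.3% of all nuclear pooled regions. The share of all regions includes those far from any gene, so it is not a matched base. Neighbouring pooled regions could also overlap the same replicate region. Replicate 1 listed 28 distinct regions for the family and replicate 2 listed 24.

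**Figure D4:**
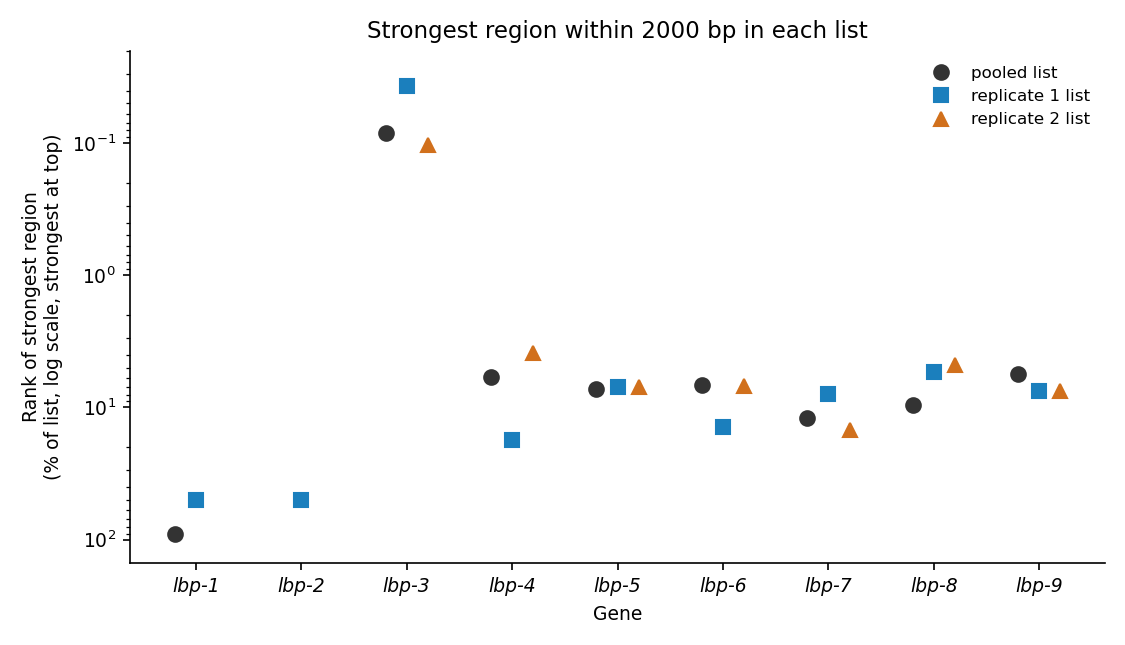
Rank of the strongest region of each lbp gene, as a percent of the list on a log axis with the strongest at the top, in the pooled list and both replicate lists. lbp-3 lies at 0.0833% of the pooled list, 0.0367% of replicate 1 and 0.103% of replicate 2, and lbp-1 lies at 91.4% of the pooled list.

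The closest pairs by percent identity of the translated coding sequences were lbp-1 with lbp-2 at 78.6%, lbp-3 with lbp-4 at 70.8%, lbp-5 with lbp-6 at 70.4% and lbp-7 with lbp-8 at 69.3%. The proteins of lbp-5 to lbp-8 were also alike across these pairs, at 54.4% to 61.5%. lbp-9 was closest to lbp-6, at 45.5%. The protein of lbp-3 was 42.1% identical to that of lbp-1 and 46.2% to that of lbp-2, its neighbours on X. Over all 36 pairs identity ran from 25.9% to 78.6%, with a median of 33.6%. lbp-3 and lbp-4, the pair closest in sequence apart from lbp-1 and lbp-2, stand on different chromosomes and had strongest pooled signals of 375 and 42.3. No 31-base word of the 300 bp around the strongest pooled summit of any of the 8 genes occurred elsewhere in the genome.

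In those 300 bp windows, TGATAA, bound by intestinal GATA factors such as ELT-2, occurred on either strand in 5 of the 8 lbp windows, beside 32.3% of all nuclear pooled regions and 30.7% of nuclear IDR peaks. The lbp-3 window held 3 copies, starting 38 bp before and 30 bp and 60 bp after the summit, of which the last is beyond the printed stretch. The lbp-8 window held 4 copies and the lbp-7 and lbp-6 windows 2 each. Windows with 3 or more copies made up 2.10% of nuclear pooled regions and 2.79% of nuclear IDR peaks. No TGATAA was found in the windows of lbp-4, lbp-9 and lbp-1.

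TATAAA occurred in the windows of lbp-4, lbp-9 and lbp-1, starting 36 bp before the summit in lbp-4 and 14 bp before it in lbp-9, beside 36.0% of nuclear pooled regions and 26.1% of nuclear IDR peaks. CACGTG occurred in those of lbp-9, lbp-1 and lbp-5, beside 4.84% and 9.62%. TTTCAG occurred in those of lbp-4, lbp-5 and lbp-6, beside 45.5% and 29.9%. GGGCGG occurred in that of lbp-6, beside 5.06% and 10.8%. GAGAGA, found in 19.4% and 42.0%, occurred in none of the 8. No matches of different motifs overlapped. GC content was 35.7% in the lbp-3 window and ran from 26.7% for lbp-8 to 40.3% for lbp-9, beside medians of 31.7% for nuclear pooled regions and 38.7% for nuclear IDR peaks.

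The nuclear IDR peaks ranked just above lbp-3 were nearest to zip-2, a bZIP transcription factor gene, with a signal of 420, to C49G7.10, with 408, and to Y58A7A.3, with 406. Those just below were nearest to R02E12.4, with 366, to dct-1, a mitophagy receptor gene, with 364, and to mop-25.1, with 363. The summits for R02E12.4 (2628 bp downstream) and mop-25.1 (3089 bp upstream) were beyond the 2000 bp limit. Those for zip-2 (941 bp downstream), C49G7.10 (51 bp upstream), Y58A7A.3 (240 bp upstream) and dct-1 (1882 bp upstream) were within it. The mop-25.1 summit was in an exon of a non-coding transcript, that for zip-2 was in an intron, and the rest were intergenic. All 6 had ranks from 8 to 28 in replicate 1 and from 22 to 30 in replicate 2, so that the lbp-3 ranks of 11 and 31 lie inside the first range and 1 rank outside the second. Among the 8008 coding genes with a region in the pooled and both replicate lists, the ranks most like those of lbp-3 belonged to mrp-5, an ABC transporter gene, with ranks 20, 10 and 25 and a distance of 0.141 between the 3 log10 ranks. Next came ceeh-1, an epoxide hydrolase gene, and zip-2, both at 0.169 because they share a peak, then eef-1A.2, an elongation factor gene, at 0.221 and dct-1 at 0.252.

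Other genes of lipid transport and metabolism were counted in 11 lists by symbol, with 135 genes. An IDR summit within 2000 bp was found for 16 of these, or 11.9%, and a pooled region for 101, or 74.8%, beside 7.90% and 49.5% of all coding genes. The higher IDR share did not hold nearer to the genes: within 1000 bp it was 5 genes, or 3.70%, beside 5.55% of coding genes. With the stronger 50% of IDR peaks it was 6 genes, or 4.44%, beside 4.19%. The pooled share stayed higher nearer to the genes, at 66.7% beside 40.1% of coding genes within 1000 bp and 54.8% beside 31.3% within 500 bp. The far and acbp genes encode other families of lipid carriers. The 8 fatty acid and retinoid binding far genes had no IDR summit, and their strongest pooled signals had a median of 15.3, beside 38.9 for the lbp genes and 21.8 for all coding genes with a region. Of the 7 acyl-CoA binding protein genes, acbp-3 had an IDR peak, with a signal of 55.5 at 1310 bp upstream.

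Desaturases introduce double bonds into fatty acids, and acyl-CoA synthetases activate them. Of 7 desaturase genes, 2 had an IDR peak, fat-2 with a signal of 100 at 1242 bp upstream and fat-1 with 51.7 at 1785 bp upstream. The fat-1 peak ranked 14703 in replicate 1 and 647 in replicate 2. Of 22 acyl-CoA synthetase genes, 5 had one, among them acs-20 with 66.8, acs-2 with 57.5 and acs-11 with 50.9, the last nearer to eas-1. Of 9 regulator genes, 2 had one. One was nhr-49, whose product is a receptor in the LBP-8 pathway, with 63.1 at 407 bp upstream. The other was mdt-15, its Mediator partner, with 52.8 at 1909 bp upstream and nearer to W04D12.1. The gene of the other receptor of that pathway, nhr-80, had no IDR summit, and its strongest pooled signal was 44.8. The lbp-3 signal of 375 was higher than that of every one of the 16 lipid genes with an IDR summit.

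Among enzymes of fatty acid breakdown, 2 of 30 mitochondrial genes had an IDR peak, ech-1.2 with a signal of 101 and cpt-2, a carnitine palmitoyltransferase gene, with 79.2 at 217 bp upstream. The ech-1.2 peak was 1690 bp upstream, with its summit in an exon of a non-coding transcript. It was nearer to mrpl-23, a mitochondrial ribosomal protein gene, at 960 bp. Of 21 genes listed under peroxisomal beta-oxidation and peroxins 1 had a peak, the peroxin gene prx-1 with 75.1 and nearer to mgrn-1. Of 5 genes listed here under fatty acid synthesis 1 had a peak, mlcd-1 with 50.9, whose peak lay 40 bp upstream of idhg-1. Of 11 lipase genes 2 had one, lipl-2 with 85.9 and lipl-1 with 58.3, the latter nearer to dhrs-4. The lipl-2 peak lay nearest to ztf-7 itself, 350 bp upstream of it, a gene that the transgene also carries, and the transgene's part in this value was not tested. Elongase and vitellogenin genes had no IDR summit, and 1 of the 6 vitellogenin genes had a pooled region. The lipase gene lipl-4, which acts upstream of LBP-3, had a strongest pooled signal of 48.8, just under the weakest IDR signal.

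**Figure D5:**
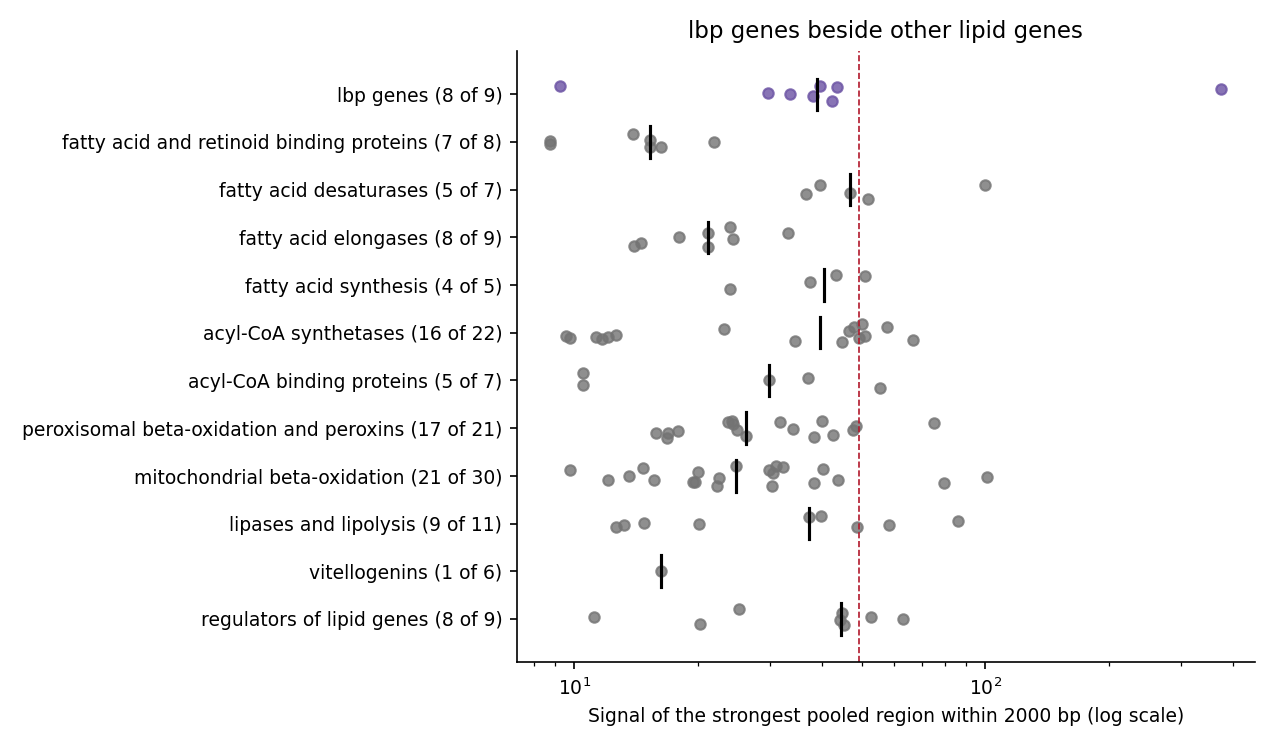
Strongest pooled signal within 2000 bp of each gene's 5' end, on a log axis, for the lbp genes and 11 lists of lipid genes; each point is a gene with a region, the bar is the median, the dashed line is the weakest IDR signal, and the labels give genes with a region of all genes in the list. lbp-3, at 375, is the highest point drawn, and the other lbp genes lie between 9.21 and 43.5.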

How the data were processed

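ZTF-7 ChIP-seq of 1 group with 2 biological replicates was used, labelled with a size range of 150 to 350 bp. The authors deposited narrowPeak lists. Their signal value is the caller's own, per region, and their q-value was deposited as −log10 q. Per the deposited notes, ChIP alignments and 1 further file gave the region lists, and comparing these gave the IDR list. The aligner, caller and IDR threshold were not given in the sources used here, and no read counts were used, so depth is unknown, and replicates are 2 values with no SD.

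The ce11 lists were read as deposited, without the ce10 lists. Summits (start plus offset) were assigned to 5' ends of nuclear protein-coding genes of Ensembl release 115, at 2000 bp or less. RefSeq gave sequence and a second set of 5' ends, matched for all 9 genes. Identities are from global alignments (BLOSUM62, gap open 10, extend 0.5) of coding sequences translated from the genome, since no protein table was used. The assignment was tested on simulated data. Genes named were the lbp genes, their neighbours, the 3 peaks on either side of lbp-3 in rank and the 5 genes most like it. Up to 3 genes per lipid list with an IDR peak were named as well. The genes lipl-4 and nhr-80 were named after their values were seen. The members and lists were chosen with earlier results of these data known. The RefSeq 5' ends were an alternative chosen after seeing the data. The others were windows, transcript ends, assignments, stronger peaks and each replicate alone. Python 3.11.15, numpy 2.4.6, pandas 2.3.3, Biopython 1.88 and matplotlib 3.10.9 were used.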

Additional observations from a re-analysis of the deposited data

How the results depend on the processing

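The count of lbp genes with an IDR summit was 1 under the 500 bp and 1000 bp windows, the stronger 50% of peaks, nearest genes only, and other 5' ends or overlap of intervals. It was 3 with the 5000 bp window, where the lbp-3 peak also reached lbp-1 and lbp-2, beside 14.2% of coding genes. The share of coding genes was 4.29% at 500 bp and 5.55% at 1000 bp. It was 4.19% with the stronger 50% of peaks and 4.87% with nearest genes only. Taking as many strongest regions as the IDR list holds from replicate 1 alone gave 1 gene, beside 7.37% of coding genes. From replicate 2 alone it gave 2 genes, the second being lbp-4, beside 7.75% of coding genes. The count with a pooled region, 8, ranged from 7 to 9 over all alternatives, each replicate alone included, while the share of coding genes ran from 31.3% at 500 bp to 63.7% at 5000 bp. The median rank of the strongest region was 6.99% of the list, and 6.94% to 7.88% in each replicate alone. These percents place each gene's strongest region among all single regions of a list, not among genes. Lipid genes with an IDR summit numbered 16, but 5 at 1000 bp (3.70%, beside 5.55% of coding genes). They numbered 6 with the stronger 50% of peaks (4.44% beside 4.19%) and 8 with nearest genes only (5.93% beside 4.87%). Replicate 1 alone gave 13 (9.63% beside 7.37%) and replicate 2 alone gave 15 (11.1% beside 7.75%). The cause of these changes was not tested. No paired analysis was possible because there is 1 group. With 2 replicates, no control sample analysed here and unknown depth, a gene with no listed region cannot be called unbound.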
